A study of Mus musculus with 16 samples.

Results

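C/EBPα occupancy in fat cells was compared between 1 h of rosiglitazone and 1 h of solvent, over every peak of the deposited C/EBPα list. The members are all 30519 C/EBPα peaks, of 61107 peaks in the C/EBPα and PPARγ lists together, and 2 of the 16 samples of the series measured C/EBPα. Both C/EBPα samples are chromatin immunoprecipitation followed by sequencing (ChIP-seq) from 3T3-L1 adipocytes at day 7 of differentiation. 3T3-L1 is an established line of mouse fibroblasts, which a cocktail of hormones turns into fat cells in culture. The rosiglitazone sample received 1 µM rosiglitazone in 0.1% DMSO and the control 0.1% DMSO alone, so both cultures carried the solvent. An anti-C/EBPα antibody was used in both. The other antibodies whose tags were read at the same peaks are against PPARγ, the Mediator subunit MED1 and the acetyltransferase CBP, in the same 2 treatments. The labels list 2 PPARγ samples per treatment, but the list has 1 PPARγ column per treatment, and whether that column holds 1 sample or both is not known. There is 1 C/EBPα library per treatment, so no replicate error can be given and no p-value is printed.

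C/EBPα is a basic leucine zipper transcription factor that binds DNA as a dimer and holds the mature fat cell programme in place together with PPARγ. PPARγ is a nuclear receptor that binds DNA with RXR, and rosiglitazone is its synthetic ligand, used as an antidiabetic drug. Rosiglitazone does not bind C/EBPα, so the comparison asks what an acutely activated partner receptor does at the sites of a factor that is not itself the drug's target. MED1 is the Mediator subunit through which nuclear receptors contact the transcription machinery, and CBP is a coactivator that acetylates histones.

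A tag is the mapped read of 1 DNA fragment. Nearly all C/EBPα peaks are windows of 230 bp, with 3 exceptions, and positions are in mouse build mm9. A tag was worth 2.21 scaled units in DMSO and 1.27 in rosiglitazone, so by the authors' scaling the rosiglitazone library was 1.73 times deeper. Depth is used in that sense below. The median peak held 7 tags in DMSO and 13 in rosiglitazone. Levels are given in the authors' scaled units, and a ratio is the scaled rosiglitazone value divided by the scaled DMSO value. Ranges in brackets after a ratio are exact 95% binomial intervals (Clopper-Pearson) of the tags. They hold the error of counting tags, taken as independent fragments, and nothing of how cultures vary. Fragments copied and counted more than once would make them too narrow, which was not tested. Where a ratio is said to lie above 1 on a number of chromosomes, the 20 chromosomes share the same pair of libraries and are not replicates.

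Summed over all peaks, C/EBPα was almost the same in both treatments. The mean level per peak was 25.6 units in DMSO and 26.0 in rosiglitazone, giving a ratio of 1.01 (1.01 to 1.02). Over the 20 nuclear chromosomes the ratio ran from 0.955 on chromosome 17 to 1.07 on chromosome 16, and the 2 peaks on the mitochondrial chromosome had 0.882. Without the highest 1% of peaks by score it was 1.03. Scaling both libraries to the median peak instead of by the authors' scaling turned it to 0.964, so the sum gives no direction.

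Single peaks spread widely around that average. Of the 15789 peaks with at least 20 tags in both libraries together, 2184 (13.8%) were at least 2-fold higher with rosiglitazone and 1165 (7.38%) at least 2-fold lower, on the scale log2(value + 1). The split between higher and lower peaks changed with the depth and height of the peaks counted. With the rosiglitazone library thinned at random to equal depth, 1193 peaks were higher and 909 lower of 10234. At 50 thinned tags or more, 178 were higher and 179 lower of 2327. Among peaks with a mean scaled level of at least 30 units, 578 were higher and 449 lower of 6120. At 60 units or more, 135 were higher and 134 lower of 1984.

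Counting error alone covers less of the spread where peaks are deep. Of the 3957 peaks with at least 50 tags, 647 had an interval wholly above the common ratio and 752 wholly below it, 35.4% in all. Of the 1194 with at least 100 tags, 219 lay above and 386 below, 50.7%. The common ratio is that of all peaks, 1.01, while peaks with at least 100 tags had a median log2 ratio of -0.16. Intervals also narrow with more tags, so the rise in this share does not by itself show a wider spread. The interquartile range of log2 ratios was -0.45 to 0.63 at 20 tags or more and -0.55 to 0.34 at 100 tags or more, so it narrowed little with depth. Whether this spread lies between the treatments or between any 2 cultures cannot be told apart with 1 library each.

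**Figure D1:**
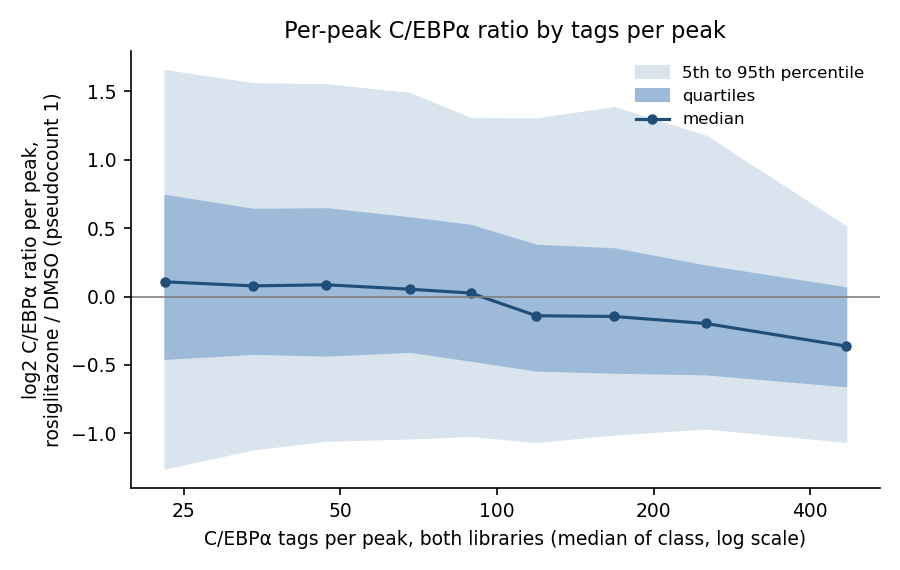
Percentiles of the log2 C/EBPα ratio per peak (y axis, pseudocount 1) against the tags of the peak in both libraries (x axis, log scale), for 9 classes of peaks with at least 20 tags. The median falls from 0.11 at 20 to 29 tags to -0.36 at 400 tags or more, and the 95th percentile stays farther from 0 than the 5th up to 399 tags.

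Among peaks with at least 50 tags, 69 were at least 4-fold higher and 0 at least 4-fold lower. At 20 tags or more the counts were 402 and 33. At equal depth, with 50 thinned tags or more, the counts were 23 and 2, and with a mean level of at least 60 units 19 and 0. The peak at chr13:103023654-103023884 held 1 tag in DMSO and 55 in rosiglitazone, giving a ratio of 31.7 (5.46 to 1276). It lay 21443 bp from the nearest PPARγ peak, and PPARγ there went from 0.88 to 11.6 units while MED1 was 62.9 and 61.2. The peak at chr5:115637334-115637564 overlapped a PPARγ peak and held 2 and 62 tags, a ratio of 17.9 (4.75 to 151).

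Deeper examples had the same direction in PPARγ. At chr5:64689632-64689862 C/EBPα held 4 and 79 tags, a ratio of 11.4 (4.28 to 42.8), with PPARγ at 2.64 and 16.6 units and CBP at 70.7 and 164. At chr5:145705947-145706177 C/EBPα held 7 and 124 tags, a ratio of 10.2 (4.81 to 25.9). PPARγ there was 8.79 units in DMSO and 49.9 in rosiglitazone, and MED1 112 and 53.6. The window lay 18 bp from a PPARγ peak. At chr2:117519319-117519549 the tags were 4 and 64, a ratio of 9.23 (3.43 to 34.9). All 5 peaks with the highest ratios held at most 7 C/EBPα tags in DMSO and had more PPARγ with rosiglitazone. More PPARγ was not particular to them. The 5 peaks with the lowest ratios, given below, had more PPARγ with rosiglitazone too, and the PPARγ ratio summed over all C/EBPα peaks was 1.58.

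Decreases were partial. The lowest ratio among peaks with at least 50 tags was 0.264 (0.136 to 0.489), at chr2:132078922-132079152, with 35 tags in DMSO and 16 in rosiglitazone. MED1 there went from 38.4 to 130 units. At chr1:159342702-159342932 C/EBPα held 39 and 18 tags, a ratio of 0.266 (0.143 to 0.477), and MED1 45.4 and 107 units. At chr3:143867666-143867896 the tags were 41 and 19, with PPARγ at 8.79 and 24.9 units and MED1 at 17.5 and 45.9. At chr12:76919822-76920052, 14361 bp from a PPARγ peak, they were 50 and 24, with MED1 at 28.0 and 23.0 units. At chr8:123062689-123062919 they were 49 and 24, with MED1 at 14.0 and 38.3. None of these 5 windows was left empty by rosiglitazone.

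The 100 highest and 100 lowest ratios among peaks with at least 50 tags, outside the mitochondrial and unplaced chromosomes, differed in what the other antibodies did. PPARγ peaks were present at 72 of the highest and 67 of the lowest, against 68.8% of all such peaks. The summed PPARγ ratio was 3.39 at the highest, 1.54 at the lowest and 1.77 at all. The MED1 ratio was the reverse, 1.29 at the highest and 2.03 at the lowest, against 1.54. CBP was 1.24, 1.14 and 1.30. These groups were chosen by their C/EBPα ratio, and the values describe them.

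C/EBPα was lower with rosiglitazone at the tallest peaks. The peak score nearly equals the pooled tags of both libraries, scaled, so it ranks height. From the lower 50% of peaks by score to the 90th percentile the ratio was 1.05 to 1.06, and it was 1.04 (1.03 to 1.05) between the 90th and 95th. It was 0.961 (0.948 to 0.973) between the 95th and 98th percentiles, 0.938 (0.921 to 0.955) up to the 99th and 0.912 (0.892 to 0.932) up to the 99.5th. In the 153 peaks above that it was 0.842 (0.829 to 0.855), from a mean level of 412 units to 347, and it was below 1 on every chromosome that held such a peak. Of these 153 peaks 101 were lower and 52 higher. Leaving out the 3 tallest gave 0.875 (0.861 to 0.890).

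PPARγ and MED1 moved the opposite way over the same peaks. The PPARγ ratio was 1.50 in the lower 50% by score and 2.19 in the highest 0.5%, and MED1 went from 1.41 to 1.75. PPARγ peaks were present at 23.9% of the former and 89.5% of the latter. The CBP ratio was 1.21 in the lower 50%, 1.32 between the 90th and 95th percentiles and 1.29 in the highest 0.5%. The score weighs the deeper rosiglitazone library more, so the ranking was repeated in tags thinned to equal depth. The highest 10% then had a ratio of 0.929 (0.922 to 0.936) and the highest 0.5% 0.819 (0.805 to 0.833). In thinned tags the lowest 10% had 1.29 (1.25 to 1.32), against 1.03 when ranked by score. All listed peaks score at least 8.1, and the score weighs rosiglitazone tags more. Listed peaks with the fewest thinned tags therefore tend to be rosiglitazone-rich by selection. The 1.29 thus cannot tell how the weakest peaks changed.

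The 10 tallest peaks did not move together. Those on the mitochondrial chromosome and at chr2:77764090-77764320 were marked as high background. The peak at chr8:24205994-24206224 held 1111 PPARγ units in DMSO and 1534 in rosiglitazone, though the nearest PPARγ peak lay 57192 bp away. Input was not analysed, so whether such tall signal is occupancy was not tested. At the tallest, chr17:39984676-39984906, the level was 6244 units in DMSO and 4858 in rosiglitazone, giving a ratio of 0.778 (0.741 to 0.817). The peak at chr10:117183450-117183680 fell most, from 2935 to 1397 units, a ratio of 0.476 (0.439 to 0.516). A pair on chromosome 6 went apart. At chr6:115461491-115461721 the level was 647 units in DMSO and 843 in rosiglitazone, giving a ratio of 1.30 (1.13 to 1.50), and PPARγ was 106 and 475. At chr6:115469402-115469632 C/EBPα was 888 and 511 units, a ratio of 0.575 (0.500 to 0.662), with PPARγ at 148 and 312 and MED1 at 692 and 842. At chr2:102041795-102042025 the level was 612 and 597 units, within counting error of no change.

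**Figure D2:**
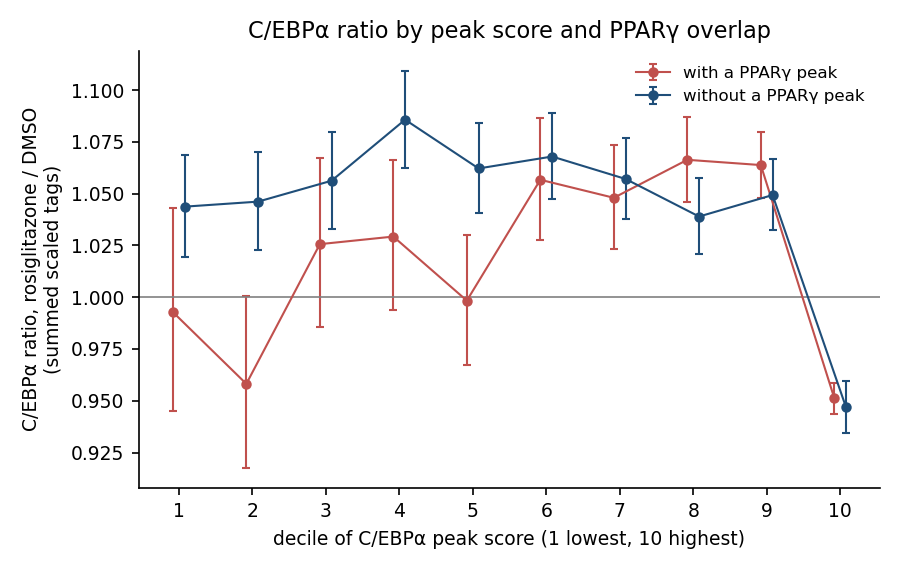
Summed C/EBPα ratio (y axis) in 10 equal groups of peaks by score (x axis), for peaks with and without an overlapping PPARγ peak, bars being exact 95% intervals for counting error. In group 10 both lines fall to 0.951 and 0.947, and in group 2 the peaks with PPARγ are at 0.958 and those without at 1.05.

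At tall peaks the ratio was much the same with PPARγ as without. In the highest 10% by score the ratio was 0.951 (0.944 to 0.959) at 2192 peaks with a PPARγ peak and 0.947 (0.934 to 0.959) at 860 without. In each of the 7 lowest groups of 10 the ratio was lower with PPARγ than without, most of all in the second lowest, with 0.958 (0.918 to 1.00) at 649 peaks with PPARγ and 1.05 (1.02 to 1.07) at 2403 without. In the lowest group it was 0.993 (0.945 to 1.04) and 1.04 (1.02 to 1.07), and in the group numbered 3 it was 1.03 (0.986 to 1.07) and 1.06 (1.03 to 1.08), with overlapping intervals. In the 9th group it was 1.06 (1.05 to 1.08) with and 1.05 (1.03 to 1.07) without. Over all heights the ratio was 0.994 (0.988 to 1.00) with a PPARγ peak and 1.03 (1.03 to 1.04) without.

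At equal height the difference by overlap averaged out, though not within each group of height. Compared between peaks of equal total C/EBPα tags, the odds that a tag came from the rosiglitazone library were 0.997 times as high with a PPARγ peak as without (0.988 to 1.01, Mantel-Haenszel). That value averages heights where the ratio was lower with PPARγ and heights where it was higher. In the 8th group of score the ratio was 1.07 (1.05 to 1.09) with and 1.04 (1.02 to 1.06) without. At equal C/EBPα and equal MED1 tags they were 1.05 times as high (1.04 to 1.06), above 1 on 18 of 20 chromosomes. The share of peaks at least 2-fold higher was 13.8% in both classes, and the share at least 2-fold lower was 7.31% with and 7.44% without, both close to the 7.38% of all peaks.

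The focus ratio is the deposited fraction that measures how sharply the tags of a peak gather at its centre. In 5 equal groups from broad to sharp the C/EBPα ratio was 0.992, 1.05, 1.05, 1.04 and 0.971. The low value of the sharpest group lay in its tall peaks. At equal total tags the sharpest group had odds 1.07 times those of the broadest (1.05 to 1.09), above 1 on 19 of 20 chromosomes, and without the highest 10% by score the ratio of the ratios was 1.08 (1.06 to 1.10). Sharp peaks of moderate height were higher with rosiglitazone, 1.10 (1.08 to 1.12) in the second tallest of 5 score groups, where broad peaks were at 0.982 (0.958 to 1.01). Sharp peaks in the tallest group were at 0.940 (0.933 to 0.948). In that group the broadest were at 0.981 (0.955 to 1.01).

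**Figure D3:**
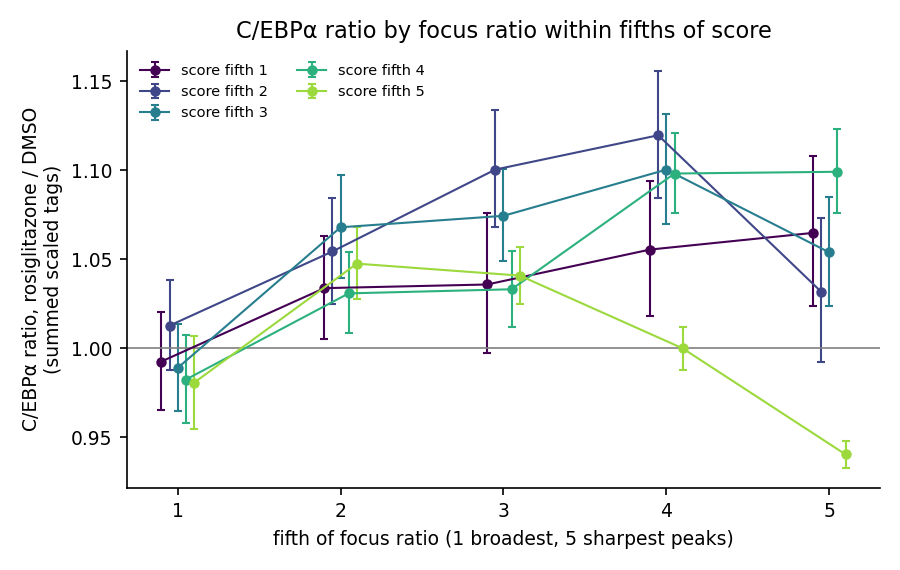
Summed C/EBPα ratio (y axis) in 5 groups of focus ratio from the broadest to the sharpest peaks (x axis), drawn separately for 5 groups of score, bars being exact 95% intervals for counting error. The broadest peaks lie between 0.981 and 1.01 in every score group, while the sharpest reach 1.10 in score group 4 and 0.940 in score group 5.

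The ratio also differed with the gap to the nearest PPARγ peak. Without overlap, C/EBPα peaks with a gap under 1 kb had a ratio of 0.948 (0.936 to 0.960; 3244 peaks). Those 1 to 10 kb and 10 to 50 kb away had 1.07 in both classes, and those 50 kb or more away 1.02 (1.01 to 1.04). At equal total tags, near peaks had odds 0.943 times those of far peaks (0.924 to 0.962). Near peaks were also broader, with a median focus ratio of 0.795 against 0.857.

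Measured between centres, the low ratios formed a band. Where centres lay under 100 bp apart the mean level was 38.2 units in DMSO and 38.4 in rosiglitazone, giving a ratio of 1.00 (0.999 to 1.01; 9128 peaks). Between 100 and 500 bp it was 29.7 and 27.1 units, a ratio of 0.911 (0.901 to 0.922; 3462 peaks), above 1 on 2 of 20 chromosomes. At 500 bp or more it was 1.05 (1.05 to 1.06; 17927 peaks). These 3 zones were chosen after the values had been seen. In finer steps the ratio was 0.942 at 100 to 150 bp, 0.867 at 150 to 200 bp, 0.893 at 200 to 300 bp and 0.870 at 300 to 400 bp. It was 0.987 (0.950 to 1.02) at 400 to 500 bp, 0.974 (0.946 to 1.00) at 500 to 750 bp and 1.08 (1.04 to 1.12) at 750 bp to 1 kb.

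The band held at equal height. At equal total tags, peaks 100 to 500 bp away had odds 0.891 times those with centres under 100 bp apart (0.879 to 0.903), below 1 on 19 of 20 chromosomes. Against peaks 500 bp or more away the odds were 0.887 times (0.875 to 0.900), again below 1 on 19 of 20. With MED1 tags also held equal the values were 0.884 (0.872 to 0.897) and 0.932 (0.918 to 0.946). In the band 10.1% of peaks with at least 20 tags were at least 2-fold higher and 10.8% at least 2-fold lower, against 13.8% and 7.38% of all peaks and 14.6% and 6.72% under 100 bp. The PPARγ ratio was 1.72 in the band and 1.62 under 100 bp, and the median focus ratio 0.783 and 0.850. A window of 230 bp so close to a PPARγ peak can hold fragments centred on that peak, and how much of the C/EBPα signal they made up was not tested.

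**Figure D4:**
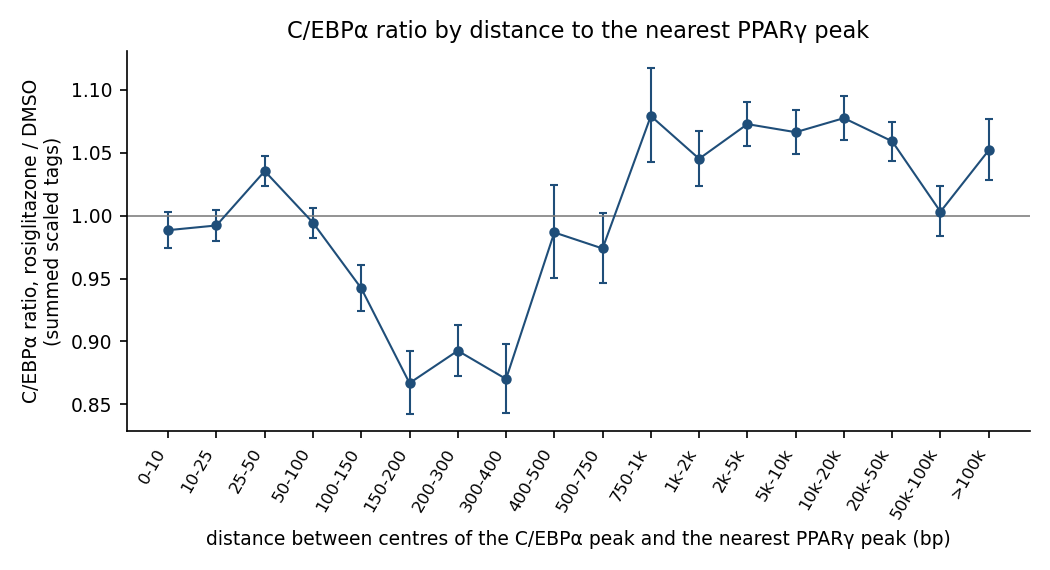
Summed C/EBPα ratio (y axis) by distance between the centres of the C/EBPα peak and the nearest PPARγ peak (x axis, 18 classes in bp, k for 1000), bars being exact 95% intervals for counting error. The ratio is near 1 under 100 bp, between 0.867 and 0.942 from 100 to 400 bp, 0.987 and 0.974 in the next 2 classes up to 750 bp, and 1.05 to 1.08 from 750 bp to 50 kb.

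C/EBPα and PPARγ did not change in proportion. The C/EBPα peaks with at least 20 PPARγ tags were put in 5 equal groups of 2187 by their PPARγ ratio, whatever their C/EBPα ratio. From the group where PPARγ fell to the group where it rose most, PPARγ ratios were 0.662, 1.07, 1.54, 2.27 and 4.37. At the same peaks C/EBPα gave 1.17 (1.15 to 1.18), 0.981, 0.873, 0.854 (0.844 to 0.864) and 1.13 (1.12 to 1.15). C/EBPα was thus higher at both ends and lower in between.

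Both ends stood above the middle at equal C/EBPα tags. The group where PPARγ fell had odds 1.29 times those of the middle group (1.27 to 1.32), above 1 on 20 of 20 chromosomes. The group where it rose most had odds 1.31 times those of the middle (1.29 to 1.34), on 19 of 20. In that last group 20.2% of peaks with at least 20 C/EBPα tags were at least 2-fold higher and 4.88% at least 2-fold lower. In the middle group the shares were 9.86% and 11.1%, and over all peaks 13.8% and 7.38%. The Spearman rho of the log2 ratios of C/EBPα and PPARγ was -0.06 over 7714 peaks with at least 20 tags of each.

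The shape was present in the tallest peaks and changed with PPARγ peak calls. In the highest 10% by score the C/EBPα ratios were 1.09, 0.924, 0.837, 0.823 and 1.12. The tallest peaks thus fell where PPARγ rose moderately and rose where it rose most. Of peaks with a called PPARγ peak, the last group had 1.16 (1.14 to 1.17). Of those with 20 PPARγ tags but no called PPARγ peak it had 0.977 (0.946 to 1.01; 300 peaks), while the first group had 1.16 (1.11 to 1.20; 254 peaks) there too.

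MED1 tags, summed over both treatments, separated the peaks further. With 0 to 2 MED1 tags the C/EBPα ratio was 1.08 (1.07 to 1.09; 13869 peaks), and with 3 to 5, 6 to 10 and 11 to 20 tags it was 1.10, 1.06 and 0.972. With over 20 MED1 tags it was 0.895 (0.888 to 0.903; 3704 peaks) and below 1 on 20 of 20 chromosomes. At equal C/EBPα tags the odds in this last class were 0.849 times those of the first (0.837 to 0.862). The log2 ratios of C/EBPα and MED1 had a Spearman rho of -0.28 over 3025 peaks with at least 20 tags of each. The DMSO library supplied most MED1 tags, being the deeper one. From 0 to 2 MED1 tags to over 20, the MED1 ratio of the classes was 1.25, 0.964, 1.06, 1.30 and 1.67. Level and change of MED1 were not separated.

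CBP went the other way at equal C/EBPα tags. Summed ratios were 1.02, 1.01, 0.962, 0.997 and 1.06 (1.05 to 1.07) from 0 to 2 CBP tags to over 20. The odds over 20 tags were 1.16 times those at 0 to 2 (1.15 to 1.18), above 1 on 19 of 20 chromosomes. The log2 ratios of C/EBPα and CBP had a Spearman rho of 0.04 over 3022 peaks.

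C/EBPα also differed with the balance of the 2 coactivators. At 1298 peaks with over 10 MED1 tags and at most 5 CBP tags, C/EBPα was 30.9 units in DMSO and 24.5 in rosiglitazone, giving a ratio of 0.792 (0.777 to 0.808), above 1 on 0 of 20 chromosomes. At 1987 peaks with at most 5 MED1 tags and over 10 CBP tags it was 24.6 and 29.3 units, a ratio of 1.19 (1.17 to 1.21), above 1 on 20 of 20. Among peaks with at least 20 C/EBPα tags, 7.34% of the MED1-rich class were at least 2-fold higher and 17.7% at least 2-fold lower. In the CBP-rich class the shares were 15.3% and 1.80%. Over all peaks with 20 tags they were 13.8% and 7.38%, so the higher share of the CBP-rich class lay close to that of all peaks. At equal C/EBPα tags the odds in the former were 0.660 times those in the latter (0.643 to 0.677).

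The contrast was present with and without a PPARγ peak. In the MED1-rich class the ratio was 0.763 (0.744 to 0.784) at 670 peaks with a PPARγ peak and 0.826 (0.803 to 0.849) at 628 without. In the CBP-rich class it was 1.19 at 969 with and 1.20 at 1018 without. PPARγ itself differed between them, with a summed ratio of 2.20 in the MED1-rich and 0.987 in the CBP-rich class. The MED1 ratio differed too, at 1.84 in the MED1-rich and 0.846 in the CBP-rich class. The tag limits of these classes were chosen after the values had been seen.

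MED1 tags also split the groups of PPARγ ratio. With over 10 MED1 tags, C/EBPα ratios from the lowest to the highest PPARγ group were 1.04, 0.885, 0.803 (0.791 to 0.816), 0.817 and 1.14 (1.12 to 1.15). With 10 or fewer they were 1.22, 1.07, 1.01, 0.989 and 1.10 (1.07 to 1.13). The group where PPARγ rose most therefore had higher C/EBPα at MED1-rich and MED1-poor peaks alike. Lower values in the middle were present at both, and deeper at MED1-rich peaks. At equal C/EBPα and MED1 tags the highest PPARγ group had odds 1.34 times those of the middle (1.32 to 1.37). The lowest PPARγ group had odds 1.21 times those of the middle (1.18 to 1.23). MED1 and CBP each have 1 library per treatment, and whether these contrasts return in another pair of cultures was not tested.

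**Figure D5:**
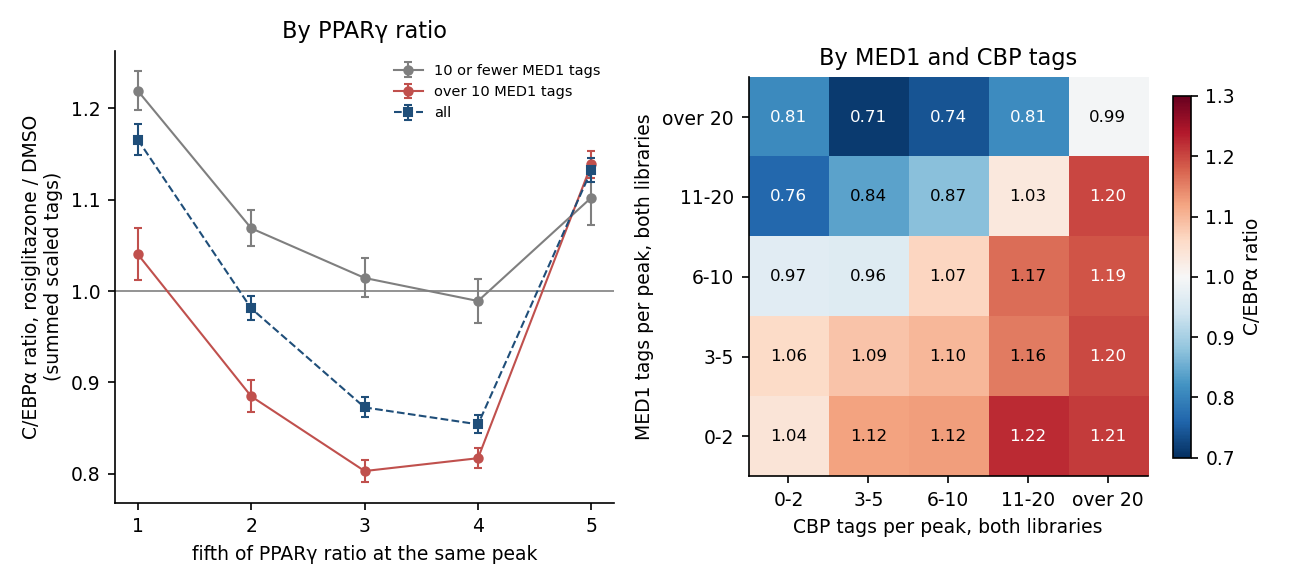
Left, summed C/EBPα ratio (y axis) in 5 groups of PPARγ ratio from lowest to highest (x axis), for all peaks with at least 20 PPARγ tags and split by MED1 tags, bars being exact 95% intervals. Right, the C/EBPα ratio printed and coloured by MED1 tags (y axis) and CBP tags (x axis), from 0.71 at over 20 MED1 and 3 to 5 CBP tags to 1.22 at 0 to 2 MED1 and 11 to 20 CBP tags.

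C/EBPα was also read in the windows of the PPARγ list. At the PPARγ peaks that share a C/EBPα peak the mean C/EBPα level was 28.3 units in DMSO and 28.2 in rosiglitazone, giving a ratio of 0.994. At the 19554 PPARγ peaks with no called C/EBPα peak it was 3.77 and 3.55 units, a ratio of 0.942 (0.929 to 0.954). With 1 tag worth 2.21 units in DMSO and 1.27 in rosiglitazone, these levels are near the floor. How background scales between the libraries was not tested.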

How the data were processed

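The members and classes were chosen with earlier results of these data known. The build was mm9 and the tools were edgeR, HOMER, Bowtie and FastQC, per the submitters' processing notes, with versions not given in the sources used here. The authors deposited a normalised tag signal per peak for each antibody and treatment, a peak score and a focus ratio, a fraction. Every signal value above 0 was a whole multiple of its column's step (100%, tolerance 0.02 steps), so tags were recovered, and 0 columns were left unmapped. The PPARγ columns name no replicate, and BRL, a code of rosiglitazone, heads that drug's MED1 column.

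Computed here with Python 3.11.15, numpy 2.4.6, pandas 2.3.3 and scipy 1.17.1 were summed ratios with exact 95% intervals, log2 ratios (pseudocount 1, minimum 20 tags) and Mantel-Haenszel odds over strata of total tags. These were tested on simulated data. With 1 library per treatment a count model has no residual degrees of freedom and was not fitted. Tags carry no molecular identifiers. Overlap means at least 1 bp. Peaks named are the 5 highest and 5 lowest ratios with at least 50 tags outside the mitochondrial and unplaced chromosomes, at most 3 each with and without a PPARγ peak, and the 10 highest scores; those of most use are printed. Gene assignment, motifs, RNA polymerase II and input were not analysed here.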

Additional observations from a re-analysis of the deposited data

How the results depend on the processing

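Of the alternatives, 19 values kept their direction and lay within the interval or within 1.5 times the count. Another 15 lay outside those limits, and 3 turned direction. The ratio over all peaks was 1.03 without the highest 1% by score, 1.02 without the 3 highest (chosen after seeing the data) and turned to 0.964 when centred on the median peak. Peaks at least 2-fold higher numbered 4851 with no minimum of tags, 409 at 50 tags, 1193 after thinning to equal depth and 578 at a mean level of at least 30 units (chosen after seeing the data). Peaks at least 2-fold lower numbered 2822, 213, 909 and 449. Higher peaks were 65.2% of those 2-fold changed, and 56.8% after thinning. The highest over the lowest 10% by score, 0.919, was 0.723 when ranked and measured in thinned tags (chosen after seeing the data). The 0.723 rests on the lowest 10% in thinned tags, where the list tends to hold rosiglitazone-rich peaks by selection. As a median log2 ratio the comparison gave no value, because 0 peaks of the lowest 10% have 20 tags. The sharpest over the broadest 5th of focus ratio, 0.979, turned to 1.02 as a median log2 ratio and to 1.07 at equal total tags. With over without a PPARγ peak, 0.962, was 0.992 as a median, 0.987 at 50% overlap, 0.992 with the upper 50% of PPARγ peaks and 0.997 at equal tags. Near over far, 0.926, was 0.903 as a median. The cause of these shifts was not tested, except that equal tags remove the part tied to height. Leaving out the 2 regions of 1 Mb and the mitochondrial and unplaced chromosomes marked as high background (71 peaks) changed no direction. No paired analysis was possible because C/EBPα has 1 library per treatment and the columns carry no replicate number.

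A median of 7 DMSO tags per peak limits what can be said of single peaks, so classes of peaks carry the comparisons. Their intervals are narrow because many tags were summed, and they hold no spread between cultures.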

Other observations

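The log2 ratios of neighbouring C/EBPα peaks were weakly correlated. Among adjacent peaks with at least 20 tags each, Spearman rho was 0.15 under 2 kb apart (1124 pairs). It was 0.06 at 2 to 10 kb (2158 pairs), 0.02 at 10 to 50 kb (3291 pairs) and 0.01 beyond (1945 pairs). Counting error in single peaks pulls rho toward 0, so these values cannot tell how much change neighbours share. Windows close together can share fragments, and the values describe these 2 libraries. By the gap to the next C/EBPα peak, the ratio was 0.996 (0.983 to 1.01; 3209 peaks) under 1 kb and 1.05 (1.04 to 1.06; 7102 peaks) at 1 to 5 kb. It was 1.00 (0.999 to 1.01; 16246 peaks) at 5 to 50 kb and 0.989 (0.978 to 1.00; 3962 peaks) beyond.

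C/EBPα peaks with the fewest PPARγ tags were higher with rosiglitazone. At 577 peaks with 0 PPARγ tags in both PPARγ columns the C/EBPα ratio was 1.16 (1.12 to 1.22). It was 1.11 at 1 to 2 and at 3 to 5 tags, 1.07 at 6 to 10, 0.991 at 11 to 20 and 0.950 (0.943 to 0.958; 6785 peaks) at 21 to 50. Above that it was 1.04 (1.03 to 1.05) at 51 to 100 and 1.02 (1.01 to 1.03; 1298 peaks) at more. Of all C/EBPα peaks, 152 held 0 C/EBPα tags in the shallower DMSO library and 1 held 0 in rosiglitazone. The score of the listed peaks weighs the deeper rosiglitazone library more, so these counts cannot be read as gains and losses.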
